A study of Mus musculus with 6 samples.

Results

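The killer cell lectin-like receptors are the C-type lectin-like proteins that natural killer cells carry on their surface. The genes described here are the 30 of 31771 rows of the count table whose Ensembl identifier maps to a symbol starting with Klra, Klrb, Klrc, Klrd, Klre, Klrg, Klrh, Klri or Klrk followed by a digit. Of these, 26 are annotated as protein coding and 4 as pseudogenes, and 0 belong to the Klrh class. All 30 are on chromosome 6, and 28 of them lie within 2.64 megabases of the natural killer gene complex. The other 2, Klrg1 and Klrg2, lie outside that stretch.

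RNA was sequenced from snap-frozen spleen pieces of 6 mice, 3 mutant and 3 wild type (WT), all labelled C57BL/6. The mutants combined VEC-Cre, the SB transposase and the onc2 transposon. VEC-Cre is Cre recombinase driven by the promoter of VE-cadherin, an endothelial adhesion gene, and it also acts in blood cells that descend from embryonic endothelium. SB (Sleeping Beauty) is a DNA transposon system, and onc2 is a version of the transposon that can activate or disrupt the genes it lands in. The WT mice are labelled only as WT, and the labels give no age, litter or batch for either group. The series was designed to compare the cell make-up of mutant and control spleens.

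Natural killer cells read other cells through pairs of activating and inhibitory receptors. Inhibitory members recruit phosphatases through tyrosine motifs in their cytoplasmic tails, whereas activating members signal through the adaptors DAP12 and DAP10. The Ly49 proteins, encoded by Klra genes, bind classical MHC class I molecules, CD94/NKG2 heterodimers bind the class I-like molecule Qa-1, and NKR-P1 proteins, encoded by Klrb1 genes, bind Clr lectins encoded in the same gene complex. Each natural killer cell expresses only some Ly49 genes, and the number of Ly49 genes differs between inbred strains of mice. Some members are also expressed outside natural killer cells, on memory CD8 T cells, natural killer T cells, dendritic cells or myeloid cells.

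The libraries held 72902118 to 79258116 counts. Levels are CPM, a gene's counts relative to the total of its library and scaled alike for all libraries, so that 3 counts are 0.0379 to 0.0412 CPM. Fold changes are log2 of mutant over WT ± SE. Xist, the RNA of the inactive X chromosome, had 1513, 580 and 0.586 CPM in mutants 1, 2 and 3, compared with 0.663, 0.423 and 0.555 CPM in WT 1, 2 and 3. Mutants 1 and 2 thus differed from mutant 3 and from the WT animals in sex as read from Xist, and sex and genotype cannot be told apart in them. In RNA from whole tissue, fewer cells of a type and less RNA per cell cannot be told apart.

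Most receptor genes were far below WT in mutants 1 and 3, whereas in mutant 2 members lay on both sides of the WT range. Against the WT range, 25 of the 30 members were lower, 4 were within it and 1 was higher in mutant 1. In mutant 2, 15 were lower, 6 within and 9 higher. In mutant 3, 26 were lower, 3 within and 1 higher. Over the 19573 genes tested, 45.2% were below and 42.7% above the WT range in mutant 1, 47.3% and 36.5% in mutant 2, and 42.6% and 43.5% in mutant 3. The median tested member stood at 11.7% of the WT mean in mutant 1, 68.4% in mutant 2 and 2.32% in mutant 3, against medians of 96.1%, 90.4% and 100.2% over all tested genes. Mutant 2 had the highest of the 3 mutant values for 25 members. The exceptions were Klrb1c, Klrb1b, Klrb1f and Klra5, highest in mutant 1, and Klrb1-ps1, highest in mutant 3.

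**Figure D1:**
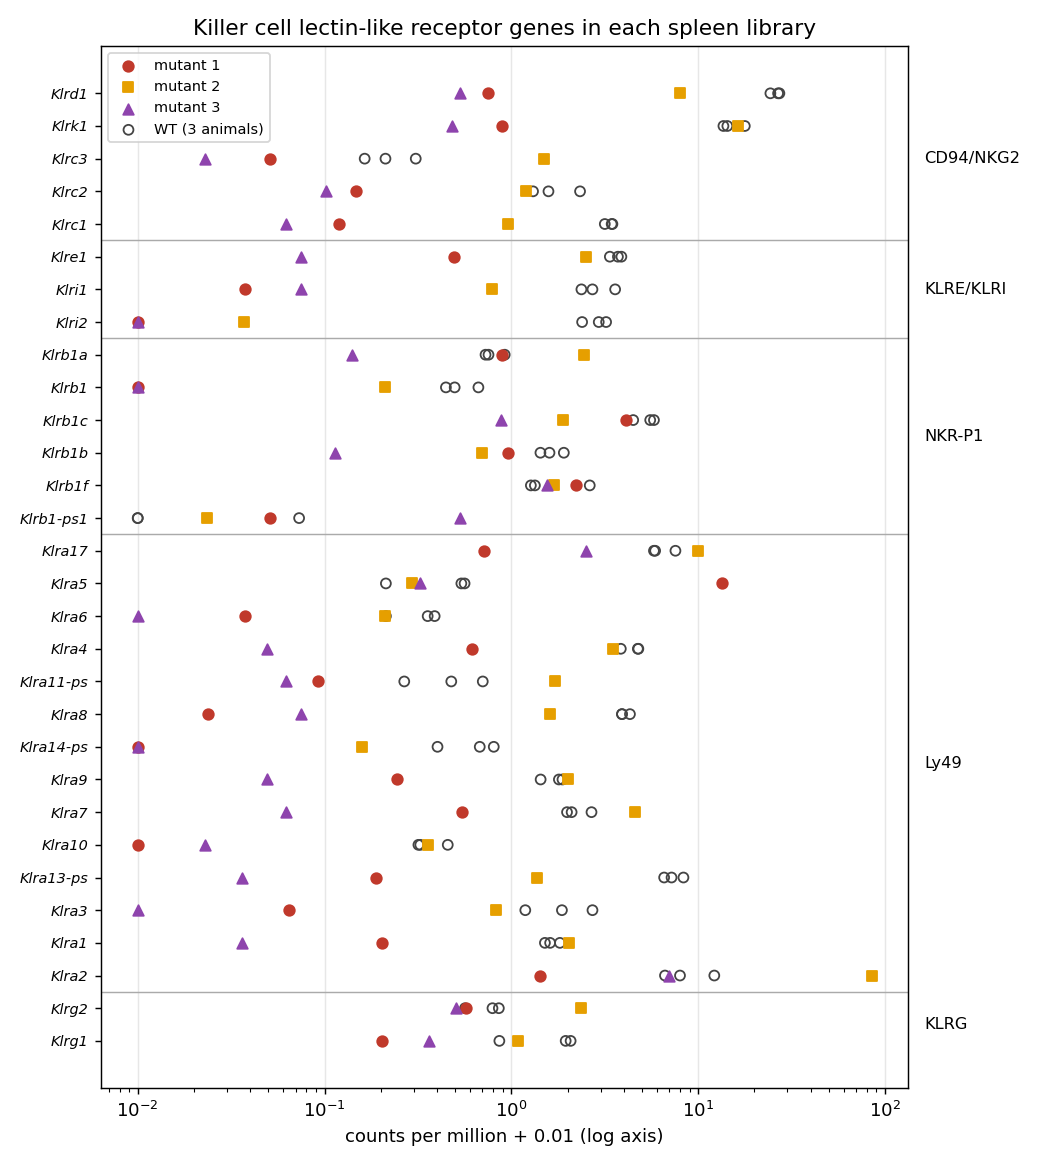
CPM + 0.01 (log axis) of the 30 genes in each library, grouped by receptor family; filled symbols are mutants 1 to 3 and open circles the 3 WT animals. Purple triangles (mutant 3) and red circles (mutant 1) lie left of the WT circles for most genes, while Klra5 in mutant 1 and Klra2 in mutant 2 lie to the right of them.

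Of the 30 members 29 passed the expression filter, Klrb1-ps1 being the exception, and 1 of them fell while 0 rose by edgeR's quasi-likelihood test at an adjusted p under 0.05. Among all tested genes, 6.9% fell and 5.08% rose. At an unadjusted p under 0.05, 6 members were lower and 0 higher by edgeR. Of the 19573 genes tested, 2945 were lower and 3169 higher at that unadjusted p. For 15 of the 30 members all mutants were below all WT animals, and for 0 all mutants were above, where 22.6% and 18.0% of all tested genes were so arranged. These 15 include Klra6, which had 15 counts in both mutant 2 and WT 1. The median log2 fold change of the tested members was -1.48, against 0.10 for all tested genes. The count of members that fell depended on mutant 2 and on the tool. Without mutant 2 it was 18, where 15.3% of all genes were lower, and without mutant 1 or 3 it was 1 (9.47% and 6.17% of all genes). Without WT 1, 2 or 3 it was 0 (0.636%, 0.581% and 0.627% of all genes). DESeq2 gave 5 members lower, Klrd1, Klrc1, Klri1, Klri2 and Klra13-ps, and 0 higher (8.31% and 7.69% of all genes), limma-voom 6 lower (9.96%) and limma-voom with sample weights 11 lower (9.36%). The DESeq2 shares are of 31771 genes, including genes without an adjusted p, and the limma-voom shares are of 19573, so they are not directly comparable. In mutant 3 alone against WT, 24 members were lower and 1 was higher (26.9% and 25.7% of all genes). Over the members the median coefficient of variation was 144% among mutants and 18.9% among WT animals.

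**Figure D2:**
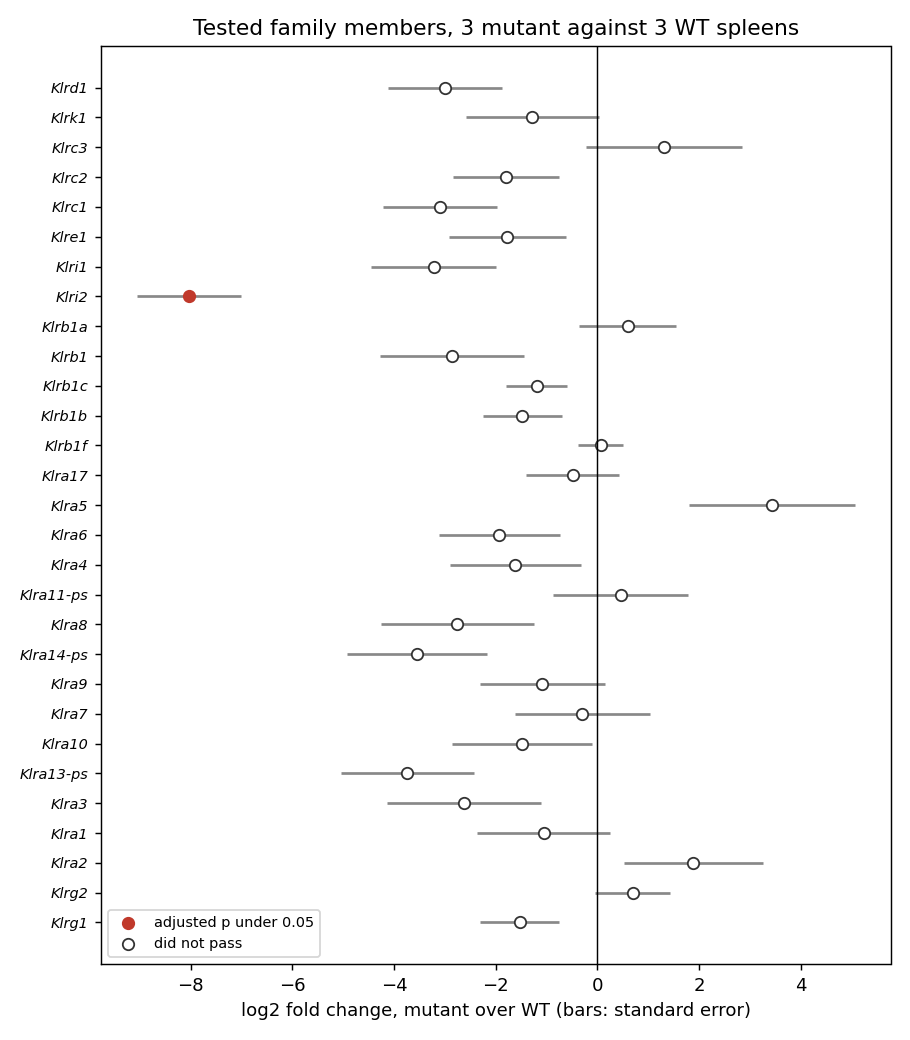
Log2 fold change of mutant over WT with its SE for the 29 tested members, by family. Klri2, at -8.04, is the filled point that passed at an adjusted p under 0.05, and the open points did not pass.

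The CD94/NKG2 group, with Klrk1 counted in it, gave the largest summed CPM of the families in WT spleens. This group summed to 1.91, 28.0 and 1.15 CPM in mutants 1, 2 and 3, against 46.5, 42.9 and 50.5 CPM in WT 1, 2 and 3. Klrk1, whose product is not among the CD94 partners named next, gave 14.3, 13.6 and 17.8 CPM of the WT sums. The Ly49 genes summed to 34.8, 41.4 and 46.5 CPM in WT animals, so the ranking rests on counting Klrk1 in the group. Klrd1 encodes CD94, the chain that NKG2A, NKG2C and NKG2E need to reach the surface (ENSMUSG00000030165, chromosome 6, 129591782 to 129598775 on GRCm38). It had 0.741, 8.01 and 0.521 CPM in mutants 1, 2 and 3, against 27.2, 24.3 and 26.8 CPM in WT animals. The groups did not overlap, but the spread among mutants was wide and the difference did not pass (log2 -2.998 ± 1.131, adjusted p = 0.134 by edgeR). Per kilobase of exon Klrd1 had the highest mean WT level of all members, 20.4 CPM per kb.

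Klrc1, which encodes the inhibitory partner NKG2A, had 0.110, 0.955 and 0.0521 CPM in mutants 1, 2 and 3, against 3.15, 3.46 and 3.43 CPM in WT animals (log2 -3.09 ± 1.12, adjusted p = 0.124 by edgeR). Klrc2, which encodes the activating partner NKG2C, had 0.137, 1.18 and 0.0912 CPM in the mutants, against 1.57, 1.30 and 2.32 CPM in WT animals. All 3 mutants were below the WT animals for both genes, mutant 2 only narrowly for Klrc2. Klrc3, encoding the activating NKG2E, went the other way in mutant 2. It had 3, 110 and 1 counts in mutants 1, 2 and 3, against 22, 12 and 16 counts in WT animals, so mutant 2 stood at 6.79 times the WT mean while the other mutants were below all WT animals. Klrk1 encodes NKG2D, which recognises stress-induced ligands and is also carried by activated CD8 T cells (chromosome 6, 129610323 to 129623864). Its level was 0.878, 16.4 and 0.469 CPM in mutants 1, 2 and 3, against 14.3, 13.6 and 17.8 CPM in WT animals. Mutant 2 lay inside the WT range, and mutants 1 and 3 at 5.76% and 3.08% of the WT mean. In mutant 2, then, Klrk1 was at 107% of the WT mean where Klrd1 was at 30.7% and Klrc1 at 28.5%.

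The KLRE/KLRI receptors pair 1 shared chain, KLRE1, with either KLRI1, which inhibits, or KLRI2, which activates. Klri2 (ENSMUSG00000043932, chromosome 6, 129729041 to 129740484, minus strand) was the member that fell. It had 0, 2 and 0 counts in mutants 1, 2 and 3, against 176, 228 and 254 counts in WT animals (log2 -8.04 ± 1.03, adjusted p = 0.0113 by edgeR). A count of 0 allows a level of up to 0.0412 CPM for mutant 1 and up to 0.0391 CPM for mutant 3, and WT animals averaged 2.84 ± 0.419 CPM (SD, n = 3). The summed counts were 2 in mutants and 658 in WT animals, a WT-over-mutant ratio of 319 with an exact 95% interval of 87.9 to 2639 that covers counting error only. Without WT 1, 2 or 3 the adjusted p was 0.0701, 0.0723 and 0.0716 by edgeR, so the call needed all 3 WT animals, while it held without any single mutant (0.00405 to 0.0207).

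The partner genes of Klri2 kept more counts in the mutants, mutant 2 above all. Klre1 had 0.480, 2.501 and 0.0651 CPM in mutants 1, 2 and 3, against 3.87, 3.71 and 3.36 CPM in WT animals (log2 -1.77 ± 1.16, adjusted p = 0.341 by edgeR). Klri1 had 0.0274, 0.780 and 0.0651 CPM in the mutants, against 2.71, 2.36 and 3.58 CPM in WT animals (log2 -3.22 ± 1.23, adjusted p = 0.139 by edgeR). All mutants were below all WT animals for these genes too. In mutant 2 Klre1 stood at 68.6%, Klri1 at 27.0% and Klri2 at 0.948% of the WT mean, differences between genes in 1 animal that carry no replicate check.

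None of the NKR-P1 genes passed by edgeR with all 6 libraries, while limma-voom with sample weights called Klrb1 lower. Their levels in single mutants lay below, inside or above the WT range. Klrb1c encodes NK1.1, the antigen by which natural killer cells of this strain are usually sorted. It had 4.12, 1.88 and 0.873 CPM in mutants 1, 2 and 3, against 4.48, 5.79 and 5.53 CPM in WT animals (log2 -1.19 ± 0.60, adjusted p = 0.232 by edgeR). Mutant 1 was at 78.2% of the WT mean for this gene, whereas it was at 2.84% for Klrd1. Klrb1b, an inhibitory receptor for Clr-b, showed the same order, with 0.947, 0.686 and 0.104 CPM in mutants 1, 2 and 3, against 1.42, 1.90 and 1.59 CPM in WT animals. Klrb1f, an activating member, had 2.19, 1.68 and 1.55 CPM in the mutants, against 1.33, 2.62 and 1.26 CPM in WT animals, so that all 3 mutants lay inside the WT range (log2 0.06 ± 0.45, adjusted p = 0.936 by edgeR). It varied less among mutants than any other member, with a coefficient of variation of 18.8%. Klrb1a had 0.878, 2.43 and 0.130 CPM in mutants 1, 2 and 3, against 0.717, 0.911 and 0.744 CPM in WT animals, with mutant 2 above and mutant 3 below all WT animals. Of the 2 weakly detected members, Klrb1 had 0, 15 and 0 counts in the mutants, against 36, 34 and 52 counts in WT animals. The pseudogene Klrb1-ps1 had 3, 1 and 40 counts in the mutants, against 0, 0 and 5 counts in WT animals.

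**Figure D3:**
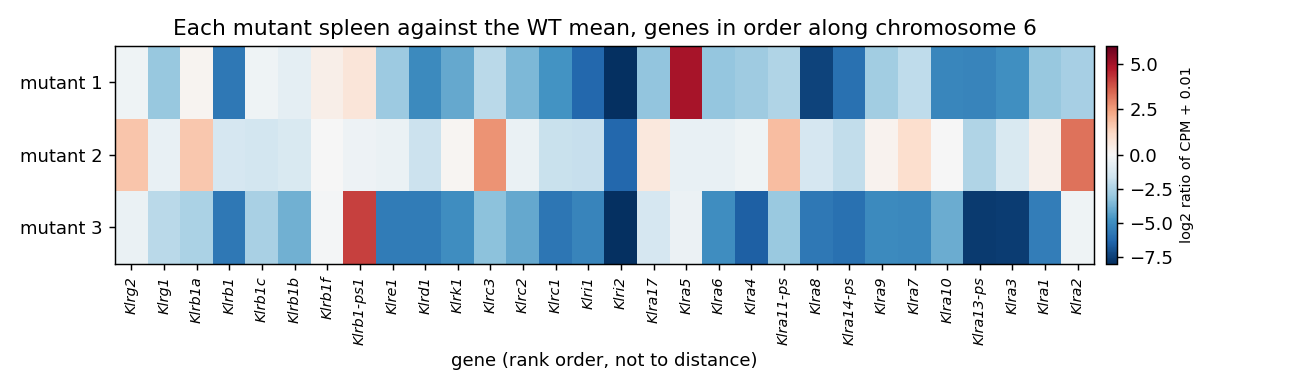
Log2 ratio of each mutant to the WT mean (CPM + 0.01) for the 30 genes in their order along chromosome 6, with blue below and red above WT. The rows of mutants 1 and 3 are blue for most genes and that of mutant 2 holds both colours. Klra5 in mutant 1, Klrb1-ps1 in mutant 3 (40 counts, against at most 5 in WT animals) and Klra2 in mutant 2 stand out in red.

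None of the 14 Ly49 genes passed by edgeR with all 6 libraries. DESeq2 called Klra13-ps lower, limma-voom Klra13-ps and Klra14-ps, and limma-voom with sample weights these and the activating genes Klra4 and Klra8. Klra4, which encodes Ly49D, had 0.604, 3.50 and 0.0391 CPM in mutants 1, 2 and 3, against 3.84, 4.77 and 4.74 CPM in WT animals. Klra8 encodes Ly49H, the receptor for a protein of mouse cytomegalovirus (chromosome 6, 130115226 to 130129898). It had 0.0137, 1.60 and 0.0651 CPM in mutants 1, 2 and 3, against 3.90, 3.90 and 4.30 CPM in WT animals. For both genes all mutants lay below all WT animals, and neither passed (adjusted p = 0.440 for Klra4 and 0.265 for Klra8 by edgeR).

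Among the inhibitory genes, Klra3, encoding Ly49C, had 0.0549, 0.820 and 0 CPM in mutants 1, 2 and 3, against 1.18, 2.71 and 1.85 CPM in WT animals. Klra7, encoding Ly49G, had 0.535, 4.60 and 0.0521 CPM in the mutants, against 1.98, 2.09 and 2.67 CPM in WT animals. Mutant 2 thus stood at 42.9% of the WT mean for Klra3 and at 205% for Klra7. Klra9, encoding Ly49I, had 0.233, 1.99 and 0.0391 CPM in mutants 1, 2 and 3, against 1.79, 1.42 and 1.87 CPM in WT animals. Klra1, encoding Ly49A, had 0.192, 2.02 and 0.0261 CPM in the mutants, against 1.502, 1.81 and 1.60 CPM in WT animals. Klra1, Klra7 and Klra9 shared 1 arrangement, with mutant 2 above and mutants 1 and 3 below every WT animal, and none of them passed (adjusted p = 0.589 to 0.899 by edgeR). The weakly detected Klra6 and Klra10 had at most 26 counts in any mutant, against 15 to 33 counts in WT animals.

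The Ly49 pseudogenes also differed among themselves. Klra13-ps was the most abundant of them in WT spleens, with 0.178, 1.36 and 0.0261 CPM in mutants 1, 2 and 3, against 6.56, 8.33 and 7.19 CPM in WT animals (log2 -3.74 ± 1.31, adjusted p = 0.115 by edgeR). Klra14-ps had 0, 11 and 0 counts in the mutants, against 29, 52 and 63 counts in WT animals. Klra11-ps had 6, 127 and 4 counts in the mutants, against 19, 54 and 37 counts in WT animals, so mutant 2 was above and mutants 1 and 3 were below all WT animals.

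Klra5 encodes Ly49E, an inhibitory receptor known from fetal natural killer cells and from lymphocytes of epithelia (ENSMUSG00000030173, chromosome 6, 129898996 to 129917650). It had 982, 21 and 24 counts in mutants 1, 2 and 3, against 15, 43 and 42 counts in WT animals. As a level this was 13.5 CPM in mutant 1, 31.5 times the WT mean, whereas mutants 2 and 3 lay inside the WT range. With 1 of 3 mutants high the difference did not pass (log2 3.44 ± 1.63, adjusted p = 0.208 by edgeR), and without mutant 1 its sign turned (log2 -0.49, adjusted p = 0.587 by edgeR). Leaving out Klra2 and Klra17, Klra5 made up 87.5% of the Ly49 counts in mutant 1 (exact 95% interval 85.4 to 89.4), 1.52% in mutant 2 (0.944 to 2.32) and 50.0% of only 48 counts in mutant 3 (35.2 to 64.8), against 0.912 to 1.999% in WT animals. In mutant 1 the granzyme gene Gzmb stood at 807 CPM and Il18rap, a chain of the interleukin 18 receptor, at 255 CPM, against at most 2.87 and 21.3 CPM in WT animals. Their relation to Klra5 was not tested.

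Klra2 and Klra17 encode Ly49B and Ly49Q, which are known from myeloid cells and, for Ly49Q, from plasmacytoid dendritic cells. Klra2 (ENSMUSG00000030187, chromosome 6, 131219223 to 131247362) had 103, 6308 and 537 counts in mutants 1, 2 and 3, against 490, 622 and 966 counts in WT animals. In CPM these were 1.41, 84.8 and 6.996 in the mutants, against 6.63, 7.98 and 12.2 in WT animals. Mutant 2 was at 9.49 times the WT mean, mutant 1 was below and mutant 3 inside the WT range (log2 1.89 ± 1.36, adjusted p = 0.388 by edgeR; log2 -1.12, adjusted p = 0.301, without mutant 2). Klra17 had 0.700, 9.91 and 2.49 CPM in mutants 1, 2 and 3, against 5.87, 5.79 and 7.54 CPM in WT animals. It too was above WT only in mutant 2. The 10 monocyte and macrophage markers summed to 303, 8126 and 806 CPM in mutants 1, 2 and 3, against 1422, 1529 and 1940 CPM in WT animals, the same order of the mutants as for Klra2 and Klra17. Their part in the levels of these genes was not tested.

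**Figure D4:**
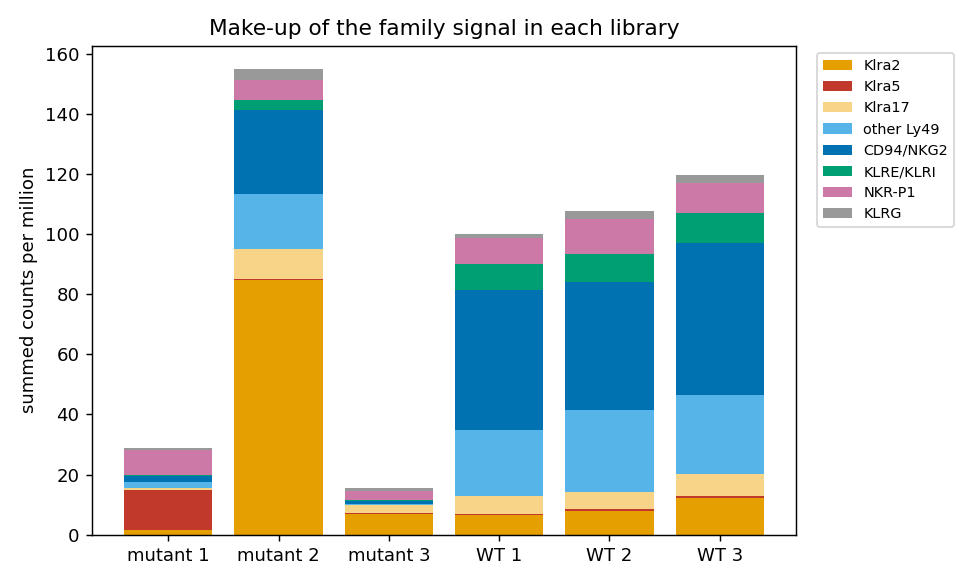
Summed CPM of the family in each library, stacked by Klra2, Klra5, Klra17, the other Ly49 genes and the remaining families. Klra2 fills 54.7% of the counts in mutant 2 and Klra5 46.7% in mutant 1, against at most 10.2% and 0.512% in WT animals.

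Summed over the family, the level was 28.8, 155 and 15.4 CPM in mutants 1, 2 and 3, against 100.1, 108 and 120 CPM in WT animals. Mutant 2 was above the WT range on this sum. Without Klra2 and Klra5 the sums were 14.0, 69.8 and 8.10 CPM in the mutants, against 93.2, 99.3 and 107 CPM in WT animals. All mutants were then below all WT animals. The genes left out were those high in mutant 2 and in mutant 1, so for mutant 2 this arrangement follows from that choice.

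Klrg1 encodes an inhibitory receptor of mature natural killer and effector T cells that binds cadherins. It had 0.192, 1.08 and 0.352 CPM in mutants 1, 2 and 3, against 0.853, 2.07 and 1.94 CPM in WT animals, with mutant 2 inside the WT range (adjusted p = 0.234 by edgeR). Klrg2 had 0.562, 2.35 and 0.495 CPM in the mutants, against 0.555, 0.847 and 0.782 CPM in WT animals, and mutant 2 was above all WT animals (adjusted p = 0.556 by edgeR).

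The Ly49 genes arose by duplication, and the bases before their start sites can be laid side by side. The sequences below are the 250 bases before the RefSeq start of Klra5, high in mutant 1, of Klra6, the gene whose window is nearest to it, of Klra2, high in mutant 2, and of Klra8, below WT in all mutants. They are read 5′ to 3′ on the minus strand of GRCm38.p6, at chr6:129913225-129913474, chr6:130026955-130027204, chr6:131247363-131247612 and chr6:130129899-130130148, and capitals mark the letters AGATAA.
Klra5: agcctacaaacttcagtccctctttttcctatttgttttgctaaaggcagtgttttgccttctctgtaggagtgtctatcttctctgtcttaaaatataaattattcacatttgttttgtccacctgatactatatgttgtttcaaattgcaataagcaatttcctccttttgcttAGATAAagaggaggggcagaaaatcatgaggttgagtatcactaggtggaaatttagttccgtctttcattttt
Klra6: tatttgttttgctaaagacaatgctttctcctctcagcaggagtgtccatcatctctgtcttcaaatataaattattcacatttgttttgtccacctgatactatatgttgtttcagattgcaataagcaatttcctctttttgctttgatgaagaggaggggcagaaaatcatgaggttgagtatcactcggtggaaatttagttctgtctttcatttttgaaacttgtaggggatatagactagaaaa
Klra2: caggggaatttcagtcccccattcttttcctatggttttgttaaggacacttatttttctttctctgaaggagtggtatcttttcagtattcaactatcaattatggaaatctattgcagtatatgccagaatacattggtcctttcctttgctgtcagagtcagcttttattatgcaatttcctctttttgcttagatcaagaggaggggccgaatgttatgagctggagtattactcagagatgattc
Klra8: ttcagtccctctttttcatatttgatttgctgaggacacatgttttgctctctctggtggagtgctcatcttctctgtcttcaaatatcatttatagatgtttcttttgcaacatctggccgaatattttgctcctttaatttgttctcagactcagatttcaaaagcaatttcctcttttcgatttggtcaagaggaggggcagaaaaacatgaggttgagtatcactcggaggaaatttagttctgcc
The RefSeq table held such a window for 23 of the 30 members, 11 of them Ly49 genes. For Klra5 the window lies inside the gene body of the GENCODE annotation, which starts the gene further upstream. The windows of Klra5 and Klra6 were identical at 73.1% of 279 alignment columns. The values were 69.1% of 272 for Klra5 and Klra8 and 60.1% of 273 for Klra5 and Klra2. Columns with a gap, at the ends too, count as not identical, so windows whose starts are offset score lower. By this measure the nearest pairs of Ly49 genes were Klra4 with Klra8 (84.5%) and Klra3 with Klra9 (83.3%). The windows of Klra1, Klra7 and Klra10 reached at most 51.3% with any other. Identity over paired bases alone was not computed, so this order may in part reflect the offset of the starts. In mutant 2 the members of each near pair differed in level, Klra4 and Klra8 at 78.5% and 39.7% and Klra3 and Klra9 at 42.9% and 118% of the WT mean. Mutant 2 is a lone animal, so these differences carry no replicate check. Klra3, Klra8 and Klra9 also share part of their transcripts with other genes, which leaves their levels uncertain.

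Short motifs were searched in these 250 bases on both strands, with TGTGGT for RUNX factors, AGATAA for GATA factors and GGAAGT for ETS factors, which share no overlap in the printed windows. The first was found for 8 of the 23 members (34.8%) and in 14.0% of 32851 windows of the same length over all genes. These members were Klrb1a, Klrb1c, Klre1, Klrk1, Klrc1, Klrc2, Klrc3 and Klra1. Klrc1, Klrc2 and Klrc3 belong to the same receptor group, so their matches need not be independent. For every motif each member was counted with a single window, while the background held every window, so the shares are not strictly alike. The second was found for 3 members (13.0%, against 9.99% of all windows), which were Klrb1f, Klra5 and Klra7. The third was found for 3 members (13.0%, against 19.7%), all of them Klrb1 genes. Of the printed windows, that of Klra5 holds AGATAA and the others hold none of the 3 motifs. A match is only a run of letters, and binding was not measured.

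Reads from recent duplicates can be hard to assign. Of all 50-base stretches in the annotated transcripts of Klra10, 39.8% also occur in transcripts of another gene, and the percentage was 38.6 for Klrc1, 36.3 for Klrc3, 33.1 for Klra8 and 31.5 for Klra9. It was 27.2 for Klrb1b, 25.6 for Klra14-ps, 21.6 for Klra11-ps, 20.7 for Klra3, 17.0 for Klrb1c and 16.3 for Klrc2. Klra13-ps and Klra7 stood at 13.7 and 12.3, shared mostly with each other. For all these genes the split of reads between the genes that share them is uncertain. No source used here gives the read length or the treatment of reads with several matches. Of the genes that stood out, Klra2, Klra17, Klrd1 and Klrk1 shared 0% with any other gene, Klra5 0.655% and Klri2 2.77%. Klrb1b and Klrb1c overlap exons of the predicted gene Gm44511 on the same strand, and their counts are uncertain for that reason.

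Part of the ligand genes of these receptors fell. Of 21 listed ligand genes 18 were found and 15 tested, of which 4 fell and 0 rose (6.9% and 5.08% of all genes), with a median log2 fold change of -0.89 against 0.10 for all genes. H60b, a ligand of NKG2D, had 0.0412, 0.0672 and 0.0130 CPM in mutants 1, 2 and 3, against 1.94, 2.55 and 2.51 CPM in WT animals (log2 -5.77 ± 0.67, adjusted p = 0.00883 by edgeR). Clec2d encodes Clr-b, the ligand of the inhibitory NKR-P1B receptor, and lies in the same gene complex. It had 40.7, 43.1 and 53.0 CPM in mutants 1, 2 and 3, against 75.4, 85.0 and 93.9 CPM in WT animals (log2 -0.89 ± 0.17, adjusted p = 0.0272 by edgeR). Cdh2, encoding N-cadherin, a ligand of KLRG1, and Clec2g, another Clr gene, fell by 3.17 ± 0.71 and 2.86 ± 0.52 on the log2 scale. H2-K1, a classical class I gene whose product Ly49 receptors bind, had the highest mean of the ligand genes over all 6 libraries, although H2-D1 was higher in every WT animal and in mutant 2. It was at 2255, 2585 and 970 CPM in mutants 1, 2 and 3, against 2622, 2740 and 3345 CPM in WT animals. All mutants were below all WT animals, and it did not pass (adjusted p = 0.419 by edgeR).

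Of 14 adaptor and signalling genes 2 fell and 0 rose (6.9% and 5.08% of all genes). The median log2 fold change was -0.46, against 0.10 for all genes. Lck, the kinase at T-cell and natural killer receptors, had 18.3, 25.7 and 11.2 CPM in mutants 1, 2 and 3, against 183, 150 and 174 CPM in WT animals (log2 -3.17 ± 0.37, adjusted p = 0.00907 by edgeR). Syk, a kinase used by DAP12 and by the B-cell receptor, fell by 1.82 ± 0.39 on the log2 scale. Ptpn6, which encodes the phosphatase SHP-1 that inhibitory receptors recruit, was at 384, 251 and 86.3 CPM in the mutants, against 599, 640 and 694 CPM in WT animals (adjusted p = 0.133 by edgeR). Tyrobp, which encodes DAP12 and is also abundant in myeloid cells, was at 103, 544 and 57.5 CPM in mutants 1, 2 and 3, against 96.7, 106 and 122.99 CPM in WT animals, and was thus above WT only in mutant 2. Hcst, which encodes DAP10, had 31.1, 20.7 and 8.91 CPM in mutants 1, 2 and 3, against 47.1, 40.7 and 49.2 CPM in WT animals. All mutants were below all WT animals for Hcst, and it did not pass (log2 -1.16 ± 0.45, adjusted p = 0.144 by edgeR).

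The listed neighbours in the same complex are lectin genes together with Gabarapl1, Magohb and Styk1, which are not. Of 17 listed neighbours 16 were tested, 3 fell and 1 rose (6.9% and 5.08% of all genes). The median log2 fold change was 0.93, against 0.10 for all genes. Of those that fell, Clec2d and Clec2g are also counted among the ligands. Clec9a, which marks the dendritic cells that cross-present antigen, fell with 8.55, 3.86 and 2.77 CPM in mutants 1, 2 and 3, against 23.7, 22.2 and 25.5 CPM in WT animals. Olr1, which encodes a receptor for oxidised low-density lipoprotein, rose with 1.78, 1.14 and 1.02 CPM in the mutants, against 0.406, 0.282 and 0.177 CPM in WT animals (log2 2.18 ± 0.50, adjusted p = 0.0428 by edgeR). Clec12a, a myeloid inhibitory lectin, had the highest mean of the neighbours over all 6 libraries, but not within either group, where Gabarapl1 led in mutant and Clec2d in WT spleens. It was at 68.7, 194 and 30.1 CPM in mutants 1, 2 and 3, against 40.9, 45.2 and 48.2 CPM in WT animals.

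Natural killer genes outside the family were set beside the members. Of 18 such genes all were tested, 2 fell and 0 rose (6.9% and 5.08% of all genes). The median log2 fold change was -1.37, against 0.10 for all genes. Their median level was 7.05% of the WT mean in mutant 1, 63.0% in mutant 2 and 12.4% in mutant 3, the order among mutants being unlike that of the family medians in mutants 1 and 3. Xcl1, a chemokine of natural killer and CD8 T cells, fell by 3.82 ± 0.91 on the log2 scale. Txk, a kinase of T and natural killer cells, fell by 3.94 ± 0.85. Ncr1, which encodes the natural killer marker NKp46, had 0.247, 4.10 and 0.508 CPM in mutants 1, 2 and 3, against 2.86, 4.49 and 4.95 CPM in WT animals. Eomes, a transcription factor of mature natural killer cells, had 0.453, 6.71 and 0.378 CPM in the mutants, against 11.1, 9.65 and 13.5 CPM in WT animals. For both genes mutants 1 and 3 were below all WT animals. For the genes named next, mutant 3 was above all WT animals, for Itga2 only narrowly. Prf1, which encodes perforin, had 0.905, 7.19 and 31.4 CPM in mutants 1, 2 and 3, against 15.8, 12.6 and 13.9 CPM in WT animals. Serpinb9b, a serpin gene, had 0.123, 1.09 and 3.20 CPM in the mutants, against 0.934, 0.693 and 0.732 CPM in WT animals. Itga2, an integrin chain, had 0.508, 1.98 and 1.69 CPM in the mutants, against 1.16, 1.46 and 1.65 CPM in WT animals. On the sum of the list mutant 1 was highest, at 1116 CPM, with 245 and 70.8 CPM in mutants 2 and 3, against 291, 305 and 374 CPM in WT animals, and most of that sum in mutant 1 was Gzmb.

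Markers of other blood cells moved with the groups as well, where 6.9% of all genes fell and 5.08% rose by edgeR. The 12 T-cell markers summed to 21.4, 300.1 and 21.7 CPM in mutants 1, 2 and 3, against 936, 747 and 871 CPM in WT animals, and 5 of them fell. Cd4, which macrophages and dendritic cells can also express, gave 197 CPM of the sum in mutant 2, against 85.0 to 107 CPM in WT animals, and the median marker in mutant 2 was at 14.8% of the WT mean. The 10 B-cell markers summed to 109, 101 and 49.4 CPM in the mutants, against 6333, 6962 and 7088 CPM in WT animals, and all 10 fell. Dendritic markers summed to 163, 293 and 177 CPM in mutants 1, 2 and 3, against 390, 384 and 432 CPM in WT animals, with 2 of 10 lower. The neutrophil markers summed to 562, 2487 and 1394 CPM in the mutants, against 396, 273 and 238 CPM in WT animals, and 3 of 11 rose. In mutant 1 Prtn3 alone gave 416 CPM of that sum. The median neutrophil marker was at 38.5%, 833% and 511% of the WT mean in mutants 1, 2 and 3. The erythroid markers summed to 5019, 48672 and 3855 CPM in mutants 1, 2 and 3, against 82431, 80101 and 52548 CPM in WT animals. That sum was below all WT animals in every mutant, but Hbb-bs alone gave 61514, 59136 and 38782 CPM of it in WT 1, 2 and 3. The median erythroid marker was at 66.1%, 503% and 307% of the WT mean in mutants 1, 2 and 3, and 1 of 10 genes rose. In neither the neutrophil nor the erythroid list did a gene fall (0 lower by edgeR), and in the monocyte and macrophage list 0 of 10 passed in either direction. The part of these differences in cell make-up in the receptor levels was not tested.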

How the data were processed

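Per the labels' protocols, stranded libraries were prepared from poly-A RNA, with 50 ng of RNA from each spleen piece. The authors deposited raw counts per Ensembl gene without normalization. The submitters' processing notes name STAR 2.5.3a, limma, mm10 and GRCm38 but not what each was used for. How strand and reads with several matches were handled, and which annotation was counted, is not stated. Symbols matched 31669 identifiers and 102 had none, and coordinates come from GENCODE M21 on GRCm38. Column names were matched to sample titles, 0 columns were left over, and replicate numbers only name animals in accession order.

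All genes were tested with edgeR 4.0.16 (R 4.3.3), using TMM factors, filtering by group, a robust quasi-likelihood fit and Benjamini-Hochberg adjustment, with calls at 0.05. CPM use the counts as deposited, with no TMM factor. The SE was obtained as log2 fold change over the square root of F. The fit was tested on simulated data, in which the mean of a changed gene moved alike in all mutants. No result here rests on that test. No label says that the animals of a group came from separate litters. Alternatives were relative log expression size factors, no expression filter, a filter of 1 CPM in 3 libraries, DESeq2 1.42.0, limma-voom 3.58.1 with and without sample weights, each library left out, and mutant 3 alone against WT. Promoter windows come from RefSeq (GRCm38.p6) and were aligned globally with Biopython 1.88.

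The members and lists were chosen with earlier results of these data known. Values in each library are given for members of at least 1 CPM in a group mean. Of each list, passing genes (at most 4, smallest p first) and the most abundant gene were to be named, but lists of other cell types are given as sums and counts here. Ncr1, Eomes, Prf1, Serpinb9b, Itga2, Cd4, Il18rap, Tyrobp and Hcst, and the printed windows, were chosen after their values were seen. The genes left out of the family sum and of the Ly49 share were also chosen with earlier results of these data known. Intervals and floors cover counting error only. Raet1a, Raet1b and Raet1c were not matched.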

Additional observations from a re-analysis of the deposited data

How the results depend on the processing

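The call on Klri2 and the counts of 1 member lower and 0 higher were the same with relative log expression size factors, with both other expression filters, and without mutant 1 or 3. Members lower numbered 5 by DESeq2 (26 with an adjusted p), 6 by limma-voom, 11 with sample weights, and 24, with 1 higher (Klrb1-ps1), in mutant 3 alone, where the lone mutant is assumed to vary like the WT animals. Without WT 1, 2 or 3, 1 member was lower and 0 higher at an unadjusted p under 0.05 by edgeR in each case. Of 20440, 20478 and 20405 genes tested there, 2176, 2178 and 2106 were lower and 1933, 1922 and 1761 higher at that unadjusted p. At an adjusted p under 0.05, leaving out 1 library gave 0 to 18 members lower and 0 higher, with 18 without mutant 2 and 0 without WT 1, 2 or 3. Over all genes tested 1351 were lower in all 6 libraries, 2640 by DESeq2, 3137 without mutant 2, 119 to 130 without a WT animal and 5864 in mutant 3 alone. Those higher were 995 in all libraries, 2444 by DESeq2, 1780 and 2794 without mutant 1 and 2, 4 to 8 without a WT animal, 1818 with sample weights and 5602 in mutant 3 alone. The causes were not tested. Of the 29 tested members 20 kept the sign of their log2 fold change in every alternative that gave a value, and the other 9 follow. Klra11-ps ranged from -2.82 to 1.01 with 1 library left out, with the sign turned without mutant 2, and was -1.13 by limma-voom, -2.15 with sample weights and -3.18 in mutant 3 alone. Klra17 ranged from -2.04 to 0.035 with 1 library left out, with the sign turned without mutant 1. Klra2 ranged from -1.12 to 2.46 with 1 library left out, with the sign turned without mutant 2, and was -0.21 with sample weights and -0.39 in mutant 3 alone. Klra5 ranged from -0.49 to 3.99 with 1 library left out, with the sign turned without mutant 1, and was -0.49 in mutant 3 alone. Klra7 ranged from -2.95 to 0.28 with 1 library left out, with the sign turned without mutant 1 or mutant 3. Klrb1a ranged from -0.68 to 1.13 with 1 library left out, with the sign turned without mutant 2, and was -0.28 by limma-voom, -1.35 with sample weights and -2.63 in mutant 3 alone. Klrb1f ranged from -0.14 to 0.51 with 1 library left out, with the sign turned without mutant 1 or WT 1 or WT 3, and was -0.14 with sample weights and -0.21 in mutant 3 alone. Klrc3 ranged from -2.97 to 1.89 with 1 library left out, with the sign turned without mutant 2, and was -0.99 by limma-voom, -2.13 with sample weights and -3.94 in mutant 3 alone. Klrg2 ranged from -0.49 to 1.08 with 1 library left out, with the sign turned without mutant 2, and was -0.19 with sample weights and -0.60 in mutant 3 alone. No paired analysis was possible because the replicate numbers are accession order and no label links a mutant to a WT animal. Depth limits the members under 1 CPM, where few counts decide a level.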
